A study of Mus musculus with 82 samples.

Results

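Kallikreins are secreted serine proteases, and 9 of their genes (Klk5, Klk6, Klk7, Klk8, Klk9, Klk10, Klk11, Klk13 and Klk14) were followed in mouse ear skin together with Spink5, the gene of the inhibitor LEKTI. The members were taken by gene symbol, and all 10 were found among the 56941 genes of the deposited tables and passed the filter on low counts in both experiments. The RNA came from right ear punches of female mice of the strain C57BL/6J Rj, whose age the labels do not give. Skin inflammation was driven by a cream with 5% imiquimod, an agonist of the receptor TLR7, put on the ears daily from day 0 to day 7. Some of the mice also drank water with IDOR-1117-2520, which inhibits the chemokine receptor CCR6.

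A time course of 52 libraries compared sham ears (labelled vehicle, with its content not given), imiquimod ears and imiquimod ears of mice on the drug, each on days 2, 5 and 8, which makes 9 groups. A second experiment of 30 libraries, called the start-day experiment, had sham ears, imiquimod ears and 3 groups with imiquimod in which the drug began on day 0, day 3 or day 5. A label of that experiment gives the time of treatment as day 8 for sham, for imiquimod and for the drug from day 0, as day 5 for the start on day 3 and as day 3 for the start on day 5. The treatment protocol speaks of drug given at least 1 day before imiquimod and does not mention later starts, so the start days rest on the sample labels. There were 6 libraries a group, apart from 4 for sham ears on day 5. Nothing in the labels says that libraries came from separate animals, so a p value here covers the spread of these samples, which may be technical.

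Epidermal kallikreins are stored in lamellar granules of the uppermost living keratinocytes and released into the cornified layer, where they cut the proteins that hold dead cells together, so that the surface is shed. KLK5 can activate itself and then other kallikreins, among them KLK7 and KLK14, and LEKTI, the protein of Spink5, binds and blocks these enzymes in the neutral, deeper part of the cornified layer. Loss of SPINK5 causes Netherton syndrome, a disease of skin peeling and inflammation. KLK5 and KLK14 can also cleave PAR2, a receptor on keratinocytes that drives inflammatory signals.

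All 9 kallikreins carry the same catalytic serine, and the coding bases around it show how far these neighbouring genes have parted. The start of the last coding exon is shown for each, matched to GRCm38 with the GENCODE vM21 annotation (chromosome 7, plus strand, 45 bases, 5′ to 3′), with the codon of the active-site serine in capitals.
Klk5, chr7:43850719-43850763: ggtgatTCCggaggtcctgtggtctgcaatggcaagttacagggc
Klk6, chr7:43831489-43831533: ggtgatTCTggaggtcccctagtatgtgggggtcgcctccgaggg
Klk7, chr7:43815297-43815341: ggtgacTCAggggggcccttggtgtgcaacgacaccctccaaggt
Klk8, chr7:43803614-43803658: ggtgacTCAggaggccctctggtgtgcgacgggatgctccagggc
Klk9, chr7:43795991-43796035: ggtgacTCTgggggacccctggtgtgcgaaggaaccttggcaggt
Klk10, chr7:43784870-43784914: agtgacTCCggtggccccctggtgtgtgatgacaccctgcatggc
Klk11, chr7:43778785-43778829: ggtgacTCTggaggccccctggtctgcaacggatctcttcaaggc
Klk13, chr7:43726551-43726595: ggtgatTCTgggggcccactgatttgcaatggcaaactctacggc
Klk14, chr7:43694867-43694911: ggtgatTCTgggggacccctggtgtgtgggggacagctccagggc
Across these 45 bases, the 36 pairs of genes shared between 27 bases (Klk5 with Klk6, and Klk6 with Klk13) and 35 bases (Klk6 with Klk14, and Klk8 with Klk11) at the same position. Long exact matches were scarcer: of the 31-base words in the transcripts, 22.9% of those of Klk8 and 22.1% of those of Klk14 also occurred in the overlapping gene 2310002F09Rik, and 0.0668% of those of Klk11 in Klk12. Counting every other gene, 22.8% of the words of Klk14 were shared, with 128 genes. Reads of Klk8 and Klk14 could therefore be split with these genes by the authors' counting, and both genes are uncertain to that degree. The genes lie side by side on chromosome 7 in the order Klk14, Klk13, Klk12, Klk11, Klk10, Klk9, Klk8, Klk7, Klk6, Klk5, Klk4 and Klk15.

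Klk13 and Klk14, at one end of the row, showed the steepest rises with imiquimod from day 5 on, so the 250 bases before their start sites are shown (RefSeq, GRCm38.p6, plus strand). Neither stretch overlaps an annotated exon. Capitals mark a match to the KLF-type motif GGGNGTGG, here read on the opposite strand.
Klk13, chr7:43712317-43712566: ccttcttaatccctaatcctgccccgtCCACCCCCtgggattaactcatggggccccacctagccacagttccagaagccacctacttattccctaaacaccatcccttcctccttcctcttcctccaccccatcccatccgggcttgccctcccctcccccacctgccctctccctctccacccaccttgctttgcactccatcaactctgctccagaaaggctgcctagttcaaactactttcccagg
Klk14, chr7:43690168-43690417: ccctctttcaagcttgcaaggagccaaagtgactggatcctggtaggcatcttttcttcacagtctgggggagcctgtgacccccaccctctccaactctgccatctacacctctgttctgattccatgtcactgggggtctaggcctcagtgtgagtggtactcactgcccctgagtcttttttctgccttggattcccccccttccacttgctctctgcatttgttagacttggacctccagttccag
Motifs of 7 kinds were searched on both strands in the RefSeq windows of all 9 kallikreins. The KLF-type match in Klk13 lay 223 bases before its start, and 15.9% of the 32851 windows of that length in the table held one. A STAT-type motif (TTCNNNGAA, in 7.02% of windows) was found for Klk10, and a C/EBP-type motif (TTGCNNAA, in 9.56%) for Klk11. The AP-1 motif TGANTCA (6.75% of windows), the NF-kB motif (0.356%), the GRHL motif AACNNGTT (3.64%) and the TATA box TATAAA (12.4%) had no match in any of the 9. These are matches of letters, not binding sites.

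Libraries of the time course held 13.1 M to 35.4 M counts, and those of the start-day experiment 24.1 M to 35.5 M. Levels are given as CPM, counts scaled to library size after TMM within an experiment, so levels set side by side across the experiments were normalised separately. Differences are log2 fold changes with approximate standard errors after ±, taken as the fold change's size over the square root of the F statistic. A gene is called changed at an edgeR quasi-likelihood adjusted p under 0.05 over all tested genes. Some libraries stood apart from their group in 1 or more of these genes: imiquimod library 11, sham library 5 and drug libraries 13 and 18 at day 2, sham library 19 at day 5, sham library 38 at day 8 and imiquimod library 8 of the start-day experiment. In whole ear tissue, more cells of a type and more RNA per cell cannot be told apart. All 9 keratinocyte markers (such as Krt5, Krt14, Krt1 and Krt10) were detected in every group, and their summed level was 21190 to 25950 CPM in sham and 55570 to 69710 CPM in imiquimod ears of the start-day experiment. In the time course it was 26890 to 30730 and 38530 to 46430 CPM at day 2, 28030 to 35650 and 48460 to 60920 CPM at day 5, and 28700 to 31800 and 62270 to 71360 CPM at day 8. The part of this shift in the kallikrein results was not tested.

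Spink5 lies apart from the kallikreins, on chromosome 18. In sham ears, Klk7, the chymotrypsin-like enzyme of the cornified layer, had the highest level per length. In sham ears of the start-day experiment it stood at 99.8 ± 15.3 CPM per kilobase of exon (SD, n = 6, exon lengths of GENCODE vM21), above Spink5 at 51.8 ± 5.24 and Klk5 at 44.96 ± 5.73. Spink5 and Klk5 overlapped, at 43.8 to 57.3 and 38.8 to 53.3 CPM per kilobase. Klk11 (23.8), Klk10 (20.8) and Klk8 (17.03) followed, each overlapping its neighbour in this order, and then Klk9 (8.87) and Klk6 (7.36), which overlapped too. Klk13 (0.830) and Klk14 (0.0516) were far below the rest and apart from each other. Klk14 is so low in sham ears that the 6 day 2 libraries held 16 counts of it between them, the 4 day 5 libraries 9, the 6 day 8 libraries 8 and the 6 start-day libraries 12. The order in day 2 sham ears of the time course was alike except that Klk8 (16.7) stood above Klk10 (15.01), with overlapping ranges.

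**Figure D1:**
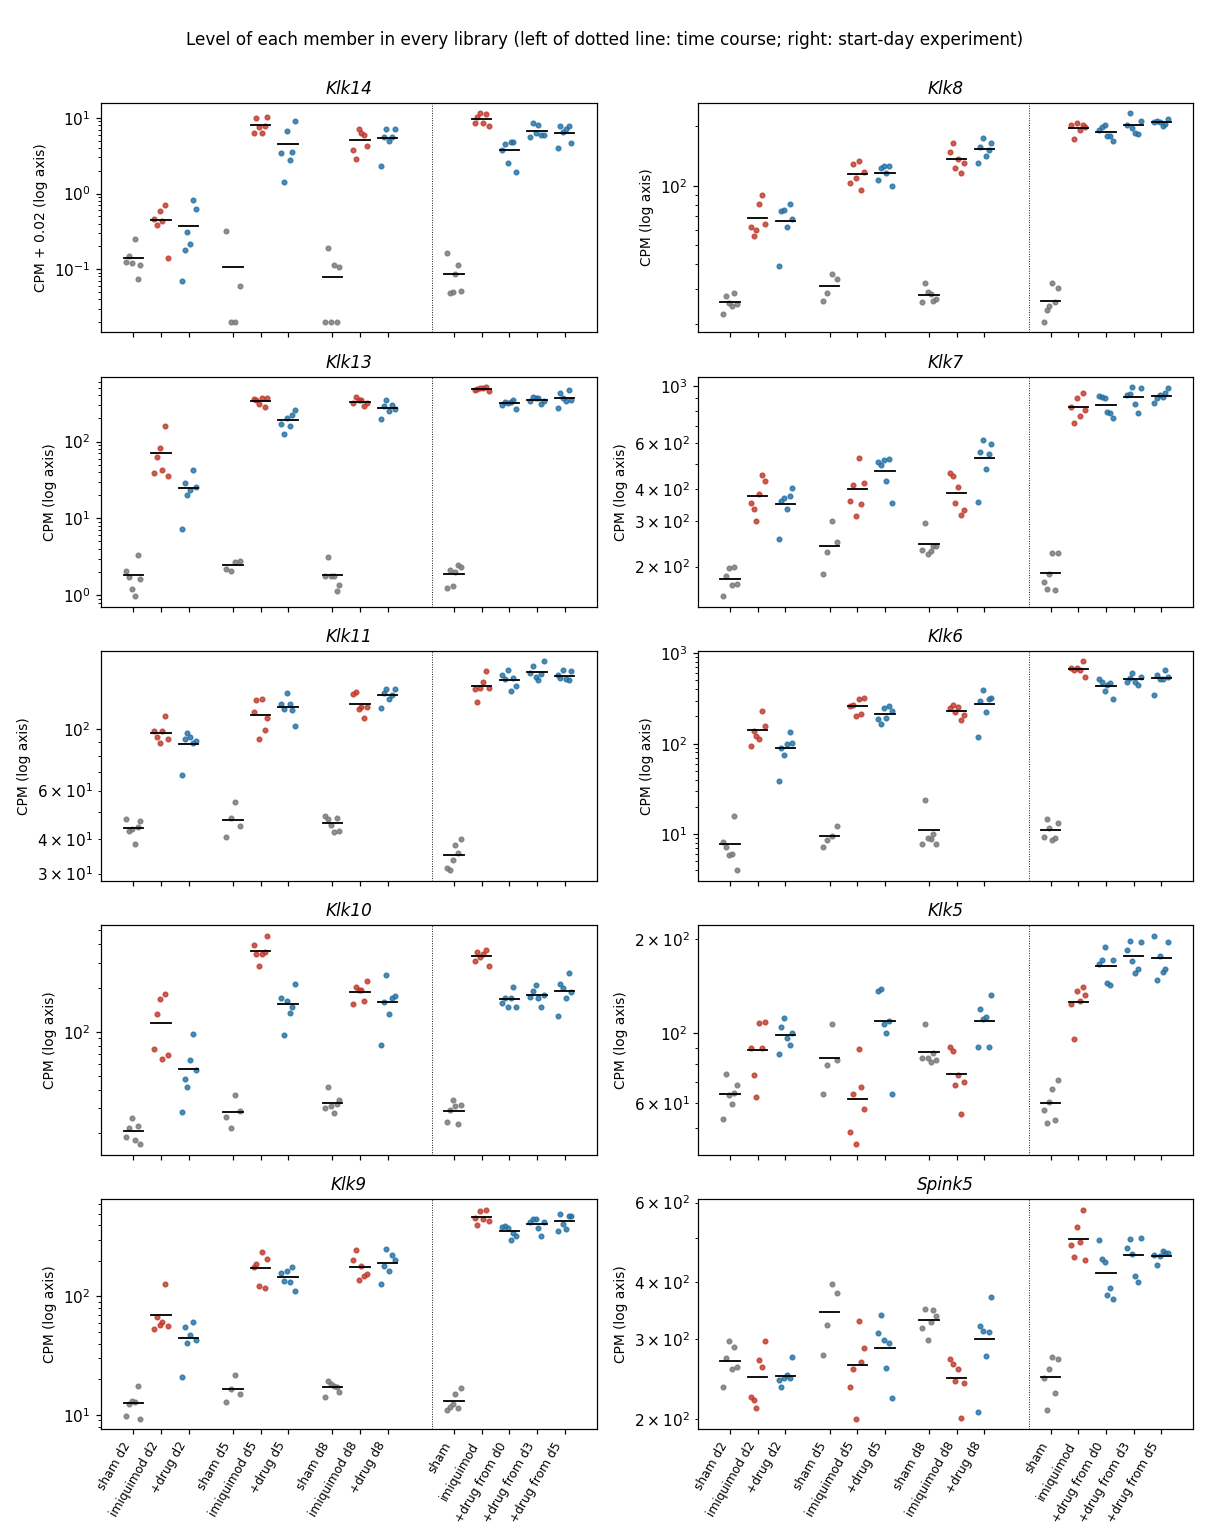
Level of the 9 kallikreins and Spink5 in each of the 82 libraries (y axis, CPM on a log scale, with 0.02 added for Klk14), by group (x axis), with a bar at each group's mean and a dotted line between the experiments. Klk13 and Klk14 move from near the bottom of their panels in sham ears to far higher levels in imiquimod ears. In the time course, Klk5 spans 44.3 to 138 CPM and Spink5 200.2 to 398 CPM. Each panel has its own y axis.

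With imiquimod, all 9 kallikreins rose at day 2 and 8 of the 9 at days 5 and 8, while the inhibitor Spink5 did not pass at day 2 and fell at days 5 and 8. At day 2, 9 of the 10 members were higher than in sham ears and 0 lower, where 29.2% of all tested genes were higher and 57.7% were called in either direction. At day 5, 8 were higher and 2 lower (34.6% and 35.9% of all genes, 70.4% in all), and at day 8, 8 were higher and 1 lower (34.5% and 33.6%, 68.1% in all). In the start-day experiment all 10 were higher and 0 lower (38.1% and 39.9% of all genes, 78.1% in all). The median log2 difference over the 10 members was 1.60, 2.64 and 2.41 at days 2, 5 and 8 and 3.22 in the start-day experiment, where the median over all tested genes was -0.03, -0.04, -0.01 and -0.02. The groups did not overlap for 7 members at day 2, 8 at day 5, 9 at day 8 and 10 in the start-day experiment. The share of all tested genes without overlap was not worked out, so these counts have no background beside them. Between sham ears at day 8 and at day 2, 4 members did not overlap either, though 1 was called.

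Klk13, a trypsin-like kallikrein also abundant in oral and oesophageal epithelium, showed the largest difference. Its level in sham ears at day 2 was 0.973 to 3.37 CPM (median 1.67), and in imiquimod ears 35.8 to 161 CPM (median 52.9). At day 5 the 4 sham ears held 2.16, 2.05, 2.74 and 2.80 CPM and the imiquimod ears 280 to 372 (median 354). At day 8 the ranges were 1.12 to 3.15 (median 1.79) and 292 to 375 CPM (median 330.2), and in the start-day experiment 1.23 to 2.45 (median 2.06) and 457 to 508 (median 485). No sham library of either experiment reached an imiquimod library. The log2 difference was 5.26 ± 0.36 at day 2, 7.12 ± 0.42 at day 5, 7.49 ± 0.36 at day 8 and 7.98 ± 0.14 in the start-day experiment (edgeR adjusted p at most 2.42e-16).

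Klk14, a trypsin-like kallikrein that can act on PAR2 and on other kallikreins, rose mainly between day 2 and day 5. At day 2 sham ears held 0.0534 to 0.229 CPM (median 0.102) and imiquimod ears 0.122 to 0.685 (median 0.425), and these ranges overlapped. At day 5 the 4 sham ears held 0.303, 0, 0 and 0.0400 CPM against 6.33 to 10.4 (median 7.66) in imiquimod ears. The day 8 values were 0 to 0.173 (median 0.0428) against 2.86 to 7.14 CPM (median 5.02), and the start-day values 0.0284 to 0.145 (median 0.0494) against 7.78 to 11.6 (median 9.44). Pooled counts per depth gave a ratio of 3.59 at day 2 (46 counts against 16, 95% interval 1.99 to 6.79), 88.8 at day 5 (979 against 9, 46.6 to 195), 91.7 at day 8 (502 against 8, 46.2 to 214) and 154 in the start-day experiment (1826 against 12, 87.9 to 298). The intervals cover counting error only. Of the 9 sham counts at day 5, all but 1 came from library 19, and without that library, chosen after its values were seen, the ratio was 587 (979 against 1, 105 to 23220). The fitted log2 differences were 1.80 ± 0.66 at day 2 (edgeR adjusted p 0.0172), 6.39 ± 0.60 at day 5, 6.35 ± 0.56 at day 8 and 7.17 ± 0.33 in the start-day experiment. The day 2 call was lost without the low-count filter (adjusted p 0.0532), with limma voom (0.12) and without imiquimod libraries 9 and 11 (0.11).

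Klk6, a trypsin-like enzyme known in both brain and skin, went from a low member in sham ears to the most abundant one per length in imiquimod ears of the start-day experiment. Sham ears there held 8.63 to 14.8 CPM (median 10.5) and imiquimod ears 551 to 812 (median 669.7). Per kilobase this was 445 ± 56.2 CPM, beside 436 ± 44.1 for Klk7, with overlapping ranges (SD, n = 6). The log2 difference of Klk6 was 4.19 ± 0.31 at day 2, where the ranges were 3.98 to 15.9 and 94.1 to 233 CPM, then 4.796 ± 0.37 at day 5, 4.38 ± 0.30 at day 8 and 5.91 ± 0.17 in the start-day experiment (edgeR adjusted p at most 2.65e-15). Klk9 held 11.02 to 16.9 CPM (median 12.03) in sham and 399 to 538 (median 458) in imiquimod ears of the start-day experiment. Its log2 difference was 2.48 ± 0.23, 3.40 ± 0.27 and 3.38 ± 0.23 at days 2, 5 and 8, and 5.16 ± 0.13 in the start-day experiment (edgeR adjusted p at most 1.43e-12).

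Klk10, whose human counterpart was named for its expression in normal epithelial cells, was highest at day 5 in the time course. Imiquimod ears held 65.1 to 184 CPM (median 105) at day 2, 282 to 460 (median 349) at day 5 and 156 to 224 (median 195) at day 8. Sham ears held 16.8 to 25.6 CPM (median 20.4) at day 2, 25.8, 21.8, 36.7 and 28.6 at day 5 and 27.5 to 41.5 (median 31.3) at day 8, so no sham ear reached an imiquimod ear on any day. The log2 difference from sham was 2.49 ± 0.26, 3.69 ± 0.31 and 2.54 ± 0.25 at days 2, 5 and 8, and 3.53 ± 0.13 in the start-day experiment (edgeR adjusted p at most 2.79e-11). At day 5 Klk10 led the family per length, at 264 ± 43.2 CPM per kilobase (SD, n = 6) beside 210 ± 39.6 for Klk7, with overlapping ranges.

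Klk8, also called neuropsin, Klk11, also called hippostasin, and Klk7 rose from levels that were already clear in sham ears. Klk8 went from 22.5 to 28.7 CPM in sham to 55.9 to 89.3 in imiquimod ears at day 2, and its log2 difference was 1.41 ± 0.12, 1.88 ± 0.14 and 2.28 ± 0.12 at days 2, 5 and 8. Klk11 differed by 1.15 ± 0.08, 1.26 ± 0.09 and 1.44 ± 0.08 on the same days. Klk7 went from 154 to 200 CPM (median 178) in sham to 301 to 453 (median 367) in imiquimod ears at day 2 and differed by 1.07 ± 0.13, 0.72 ± 0.15 and 0.66 ± 0.13 (edgeR adjusted p at most 2.76e-05 for these 9 values). In the start-day experiment the differences were 2.90 ± 0.08 for Klk8, 2.03 ± 0.06 for Klk11 and 2.13 ± 0.08 for Klk7, which there went from 162 to 225 CPM (median 180) to 716 to 939 (median 819).

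Klk5, the enzyme that starts the cascade, moved least among the kallikreins. At day 2 it held 53.3 to 74.3 CPM (median 64.1) in sham and 62.5 to 109 (median 89.8) in imiquimod ears, a log2 difference of 0.47 ± 0.15 (edgeR adjusted p 0.00844) with overlapping ranges. At day 5 the 4 sham ears held 64.1, 79.4, 107 and 82.03 CPM and the imiquimod ears 44.3 to 89.3 (median 60.9), a fall of 0.43 ± 0.17 (adjusted p 0.0243), again with overlap. That call was lost in a fit of the compared groups alone (adjusted p 0.0857) and without sham library 21 (-0.28, adjusted p 0.173) or imiquimod library 25 or 27. At day 8 Klk5 differed by -0.24 ± 0.15 (adjusted p 0.172). In the start-day experiment it went from 51.8 to 71.2 CPM (median 58.8) to 95.8 to 141 (median 129), a rise of 1.07 ± 0.10 (edgeR adjusted p 1.21e-10) with no overlap.

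Spink5, whose protein LEKTI restrains Klk5, Klk7 and Klk14, went down or did not pass in the time course and went up in the start-day experiment. At day 2 sham ears held 235 to 297 CPM (median 266) and imiquimod ears 211 to 297 (median 242), a difference of -0.12 ± 0.11 (edgeR adjusted p 0.335). At day 5 the 4 sham ears held 276, 322, 398 and 379.9 CPM and the imiquimod ears 200.2 to 329 (median 263), a fall of 0.39 ± 0.12 (adjusted p 0.00325) with overlap. At day 8 sham ears held 298 to 349 CPM (median 333) and imiquimod ears 201 to 270.4 (median 249.7), a fall of 0.42 ± 0.11 (adjusted p 0.000472) with no overlap. In the start-day experiment the ranges were 209.6 to 274 (median 252) in sham and 448 to 578 (median 487) in imiquimod ears, a rise of 1.00 ± 0.08 (edgeR adjusted p 6.28e-13).

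**Figure D2:**
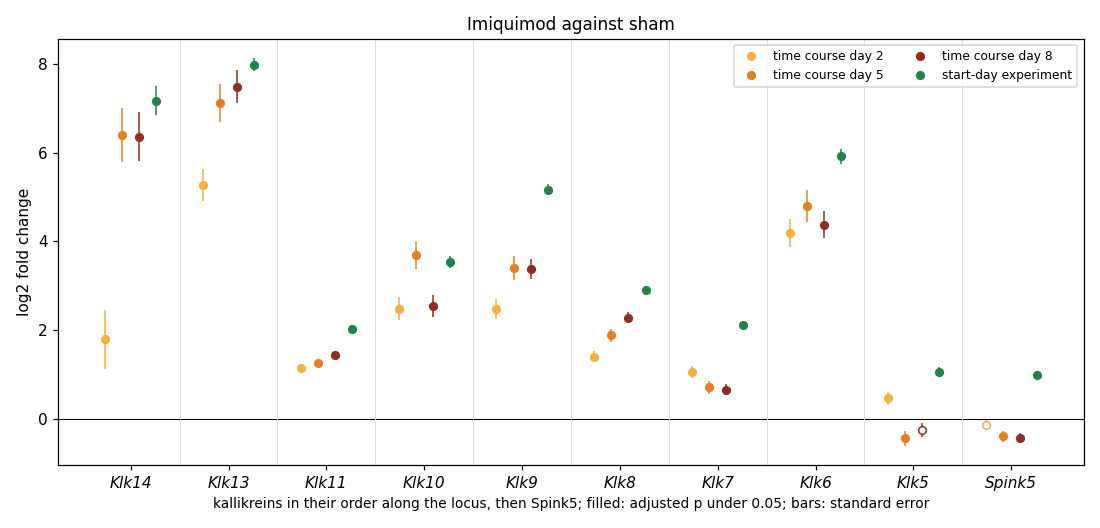
Log2 fold change of imiquimod against sham ears with its standard error (y axis) for the members in chromosome order and then Spink5 (x axis), at days 2, 5 and 8 and in the start-day experiment, with filled points for called genes. Klk13 and Klk14 stand highest from day 5 on, and Spink5 lies below 0 in the 3 time course comparisons and above 0 in the start-day experiment.

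The imiquimod effect differed among days 2, 5 and 8 for 6 of the 10 members, where 33.4% of all tested genes did so (edgeR F test of the effects). These were Klk8 (adjusted p 0.000318), Klk14 (0.001), Klk5 (0.0036), Klk13 (0.00456), Klk10 (0.014) and Klk9 (0.0269). The Klk9 call was lost without the low-count filter (adjusted p 0.0556) and without imiquimod library 7 or 12 or sham library 5 of day 2. Within imiquimod ears, 7 members were higher at day 5 than at day 2 and 1 was lower (22.6% and 23.4% of all genes). Klk14 rose by 4.22 ± 0.43, Klk13 by 2.28 ± 0.26, Klk10 by 1.65 ± 0.24, Klk9 by 1.32 ± 0.21, Klk6 by 0.88 ± 0.26, Klk8 by 0.75 ± 0.12 and Klk11 by 0.21 ± 0.07, while Klk5 fell by 0.52 ± 0.15 (edgeR adjusted p at most 0.0188). The Klk11 call was lost in a fit of the compared groups alone and without day 5 imiquimod library 26 or 28. From day 5 to day 8, 1 member was lower and 0 higher (5.88% and 5.91% of all genes, 11.8% in all): Klk10 fell by 0.94 ± 0.23 (adjusted p 0.00572), with no overlap between the days. In sham ears, 1 member was higher at day 8 than at day 2 and 0 lower (3.12% and 3.37% of all genes, 6.48% in all): Klk7 rose by 0.44 ± 0.13 (adjusted p 0.0282), a call lost without the low-count filter and without sham library 38 of day 8 or library 1, 4 or 6 of day 2.

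The imiquimod log2 difference was higher in the start-day experiment than at day 8 of the time course for 8 of the 10 members. It was lower for 0, and of all genes 10.3% were higher and 21.4% differed in either direction (edgeR joint fit of both experiments). The log2 difference was higher by 1.82 ± 0.26 for Klk9, 1.58 ± 0.34 for Klk6, 1.51 ± 0.16 for Klk7, 1.47 ± 0.14 for Spink5, 1.35 ± 0.19 for Klk5, 1.03 ± 0.29 for Klk10, 0.67 ± 0.15 for Klk8 and 0.64 ± 0.10 for Klk11 (adjusted p at most 0.00511). For Spink5 this set a rise in the start-day experiment against a fall at day 8. Klk5 rose in the start-day experiment and was not called at day 8. Klk13 (0.54 ± 0.44, adjusted p 0.452) and Klk14 (0.82 ± 1.11, adjusted p 0.682) did not pass. The experiment and everything that differed between the experiments cannot be told apart.

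The balance of protease to inhibitor transcripts moved with imiquimod on each day and in both experiments. Sums and ratios here are not corrected for length, and Spink5 has 4785 exonic bases against 1271 (Klk14) to 2297 (Klk13). They are therefore not ratios of molecules. The 9 kallikreins summed to 1.32 ± 0.05 times the CPM of Spink5 in day 2 sham ears, 1.33 ± 0.08 at day 5, 1.42 ± 0.12 at day 8 and 1.47 ± 0.10 in the start-day experiment (SD). In imiquimod ears the ratio was 4.20 ± 0.79, 7.03 ± 0.67, 6.74 ± 0.32 and 6.56 ± 0.14, and the highest sham library (1.63) lay below the lowest imiquimod library (3.41). The sum itself went from 467 to 1656 CPM at day 8 and from 365 to 3258 in the start-day experiment (means), while Spink5 fell in the one and rose in the other. Klk7 made up 50.3%, 52.4%, 52.1% and 51.7% of the kallikrein sum in these sham groups and 36.9%, 21.6%, 23.2% and 25.3% in the imiquimod groups. For single enzymes the ratio to Spink5 was taken within each library as a difference of log2 (count + 2), described without a test. Klk7 to Spink5 rose by 1.19, 1.11, 1.08 and 1.13 from sham to imiquimod at days 2, 5 and 8 and in the start-day experiment. Klk5 to Spink5 moved by 0.58 at day 2 and by -0.05, 0.18 and 0.06 in the other 3, where the largest SD of a group was 0.18.

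**Figure D3:**
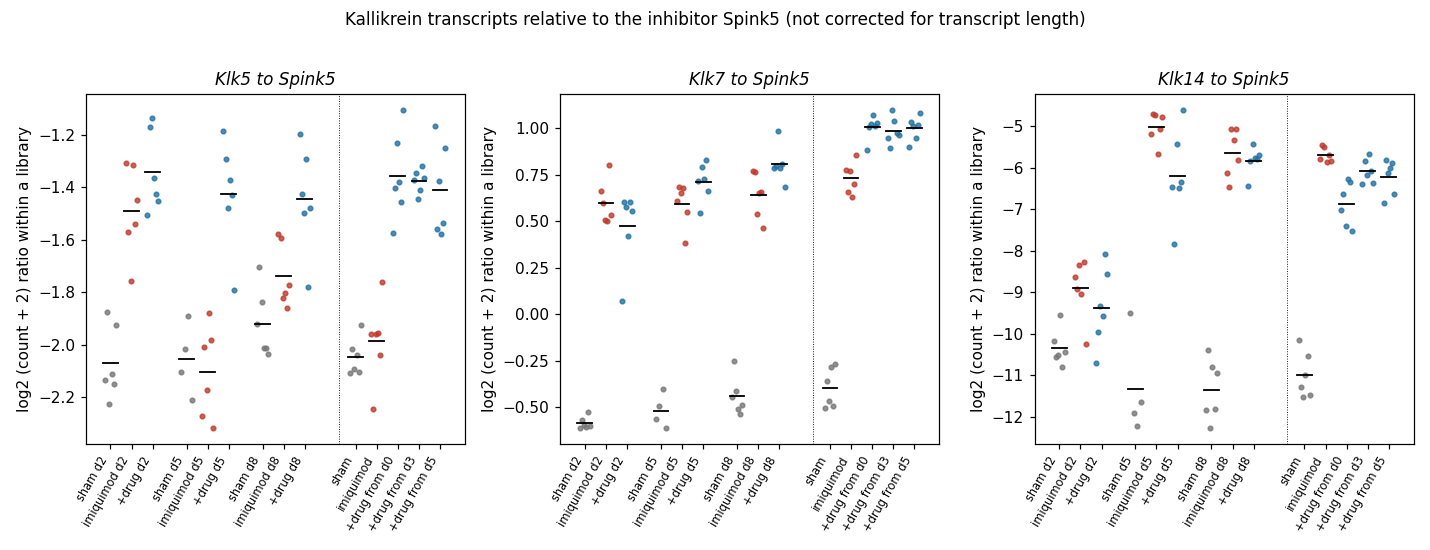
Log2 ratio of Klk5, Klk7 and Klk14 to Spink5 within each library (y axis, counts + 2, not corrected for length) by group (x axis), with a bar at each group's mean. The Klk5 ratio lies near -2 in sham ears and in the start-day imiquimod ears and near -1.4 in the 3 start-day drug groups, while the Klk7 ratio rises by about 1.1 with imiquimod in each experiment.

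In ears with imiquimod and the drug, Klk10 and Klk13 were lower than with imiquimod alone at days 2 and 5 and in the 3 start-day groups, and Klk5 was higher at days 5 and 8 and in the 3 start-day groups. At day 2, 3 members were lower than in imiquimod ears and 0 higher (9.61% and 6.9% of all tested genes). Klk13 went from 35.8 to 161 CPM with imiquimod to 7.32 to 42.7 (median 24.5) with the drug, a fall of 1.51 ± 0.27 (edgeR adjusted p 0.000703). Klk10 went from 65.1 to 184 to 28.04 to 96.7 CPM (median 51.1), a fall of 1.07 ± 0.24 (adjusted p 0.0026), and Klk9 from 53.4 to 127 to 21.1 to 61.1, a fall of 0.65 ± 0.21 (adjusted p 0.0286). The groups overlapped for all 3, and the Klk9 call was also lost without the low-count filter (adjusted p 0.0624), with limma voom (0.104) and without imiquimod library 11 or drug library 13 or 15. Without imiquimod libraries 9 and 11, a choice made with earlier results known, the calls were lost, at -0.88 (adjusted p 0.084) for Klk13, -0.64 (0.191) for Klk10 and -0.41 (0.355) for Klk9, and they were lost in a fit of the compared groups alone (0.0802, 0.0931 and 0.156).

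At day 5, 3 members were lower with the drug and 1 higher (17.2% and 18.3% of all tested genes). Klk10 held 95.0 to 213 CPM (median 156) with the drug against 282 to 460 without it, a fall of 1.24 ± 0.23 (edgeR adjusted p 5.82e-05) with no overlap. Klk13 held 126 to 254 CPM (median 186) against 280 to 372, a fall of 0.85 ± 0.25 (adjusted p 0.00619), also with no overlap. Klk14 held 1.40 to 9.06 CPM (median 3.49) against 6.33 to 10.4, a fall of 0.83 ± 0.33 (adjusted p 0.0409) with overlap, and this call was lost with DESeq2 (0.0715), without the low-count filter (0.0938), in a fit of the compared groups alone (0.0891) and without any 1 of 7 of the 12 libraries (imiquimod 26, 29 or 30, drug 31, 32, 34 or 35). Klk5 held 64.1 to 138 CPM (median 108) against 44.3 to 89.3, a rise of 0.82 ± 0.15 (adjusted p 5.31e-05) with overlap. Klk6 (-0.29 ± 0.25), Klk7 (0.24 ± 0.13), Klk8 (0.02 ± 0.11), Klk9 (-0.25 ± 0.20), Klk11 (0.10 ± 0.07) and Spink5 (0.13 ± 0.11) did not pass (adjusted p 0.137 to 0.916).

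At day 8, 1 member was higher and 0 were lower (1.22% and 0.335% of all tested genes by edgeR, and 3 members had an unadjusted p under 0.05). Klk5 held 90.2 to 133 CPM (median 112) with the drug and 55.2 to 90.4 (median 71.9) without it, a rise of 0.56 ± 0.15 (edgeR adjusted p 0.0471), with ranges that just overlapped. This call was lost without the low-count filter (0.0982) and without any 1 of 9 of the 12 libraries (imiquimod 45 to 49, drug 52, 53, 54 or 56). Klk7 held 357 to 618 CPM with the drug and 317 to 462 without it (0.44 ± 0.13, adjusted p 0.0663), and Klk10, Klk13 and Klk14 differed by -0.23 ± 0.23, -0.27 ± 0.24 and 0.11 ± 0.33 (adjusted p 0.677 to 0.928). DESeq2 and limma voom each called 2 members at day 8, with Klk7 among them (adjusted p 0.0175 and 0.00965). Klk7 also passed in edgeR without imiquimod library 44 (adjusted p 0.034) or drug library 51 (0.0167). The drug effect differed among days for 0 members by edgeR's F test (7.99% of all genes). By unadjusted p under 0.05 it did so for 7, and DESeq2 called 2 and limma voom 1. For day 8 and among days, shares of all genes are given for edgeR's adjusted p alone. The counts by unadjusted p, DESeq2 and limma voom therefore have no background beside them. The smallest adjusted p values were 0.0577 for Klk13, 0.0721 for Klk10 and 0.0916 for Klk5.

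**Figure D4:**
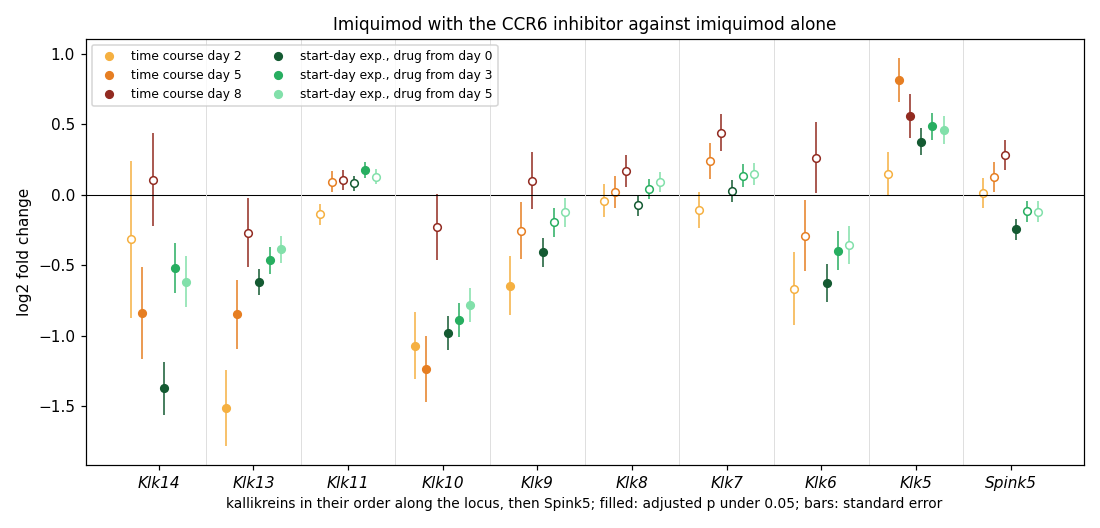
Log2 fold change of imiquimod with the drug against imiquimod alone with its standard error (y axis) for the members in chromosome order and then Spink5 (x axis), at 3 days and for 3 start days, with filled points for called genes. Klk10 and Klk13 lie below 0 in each comparison and Klk5 above 0, with called points for all 3 genes at day 5 and in the 3 start-day comparisons.

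In the start-day experiment Klk10 and Klk13 were lower and Klk5 higher in each of the 3 drug groups. The 3 comparisons share their imiquimod libraries, so their values are given side by side and were not combined. From day 0, 6 members were lower and 1 higher (16.9% and 18.2% of all tested genes), from day 3, 4 were lower and 2 higher (16.4% and 18%), and from day 5, 3 were lower and 1 higher (12.7% and 15%). Klk10 held 284 to 364 CPM (median 336) with imiquimod alone, 149 to 205 (median 164) with the drug from day 0, 149 to 209.6 (median 176) from day 3 and 129 to 256 (median 194) from day 5. It was lower in each drug group with no overlap, by 0.98 ± 0.12, 0.89 ± 0.12 and 0.78 ± 0.12 (edgeR adjusted p at most 3.25e-05). Klk13 held 457 to 508 CPM with imiquimod and 268 to 344, 309 to 382 and 273 to 462 in the 3 drug groups, falls of 0.62 ± 0.10, 0.46 ± 0.10 and 0.39 ± 0.10 (adjusted p at most 0.00297), with overlap for the start on day 5 alone.

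With the drug from day 0, Klk14 went from 7.78 to 11.6 CPM to 1.90 to 4.77 (median 4.13), a fall of 1.37 ± 0.19 (edgeR adjusted p 1.76e-06) with no overlap. It held 5.63 to 8.60 CPM from day 3 (a fall of 0.52 ± 0.18, adjusted p 0.0243) and 3.93 to 7.73 from day 5 (a fall of 0.61 ± 0.18, adjusted p 0.0101). The call from day 3 was lost without the low-count filter (0.0704) and without imiquimod library 9 or 11 or drug library 19, 23 or 24. Klk6 held 314 to 519 CPM from day 0 (a fall of 0.63 ± 0.14, adjusted p 0.000722, no overlap with 551 to 812), 446 to 602 from day 3 (a fall of 0.40 ± 0.14, adjusted p 0.0252) and 346 to 653 from day 5 (-0.35 ± 0.14, adjusted p 0.0535). Its call from day 3 was lost without the low-count filter (0.0569) and without imiquimod library 11 or drug library 22 or 23, and its value from day 5 passed with DESeq2 (0.0329) and limma voom (0.0255). Klk9 fell by 0.41 ± 0.10 with the drug from day 0 (adjusted p 0.00293) and differed by -0.20 ± 0.10 and -0.12 ± 0.10 in the later starts (0.15 and 0.42).

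Klk5 was higher than with imiquimod alone in all 3 drug groups, with no overlap. It held 95.8 to 141 CPM (median 129) with imiquimod, 142 to 189 (median 169) with the drug from day 0, 155 to 196 (median 177) from day 3 and 148 to 205 (median 168) from day 5. The rises were 0.38 ± 0.10, 0.49 ± 0.10 and 0.46 ± 0.10 (edgeR adjusted p 0.00317, 0.00031 and 0.000819). Spink5 fell by 0.24 ± 0.08 with the drug from day 0 (367 to 497 against 448 to 578 CPM, adjusted p 0.0121, with overlap) and differed by -0.12 ± 0.08 in both later starts (0.241 and 0.254). The log2 ratio of Klk5 to Spink5 within a library was higher than with imiquimod alone by 0.63, 0.61 and 0.58 in the 3 drug groups, and by 0.15, 0.68 and 0.29 at days 2, 5 and 8 of the time course. Klk7 (0.03, 0.14 and 0.15) and Klk8 (-0.07, 0.04 and 0.09) were not called in any of the 3, and Klk11 rose by 0.17 ± 0.06 from day 3 (adjusted p 0.0145), a call lost without imiquimod library 8.

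The start days themselves could not be ranked in these genes. Between the drug from day 5 and from day 0, 0 members were called by edgeR (0.0217% of all tested genes), 4 had an unadjusted p under 0.05, DESeq2 called 1 and limma voom 0. An F test among the 3 start days called 0 members (0.00542% of all genes), 2 had an unadjusted p under 0.05, and DESeq2 called 1 and limma voom 0. These shares are for edgeR's adjusted p, so the counts by unadjusted p and by the other methods have no background beside them. Klk14 came nearest, at 0.76 ± 0.19 from day 5 over day 0 (edgeR adjusted p 0.0927), and passed without drug library 13 (0.86, adjusted p 0.0149). Compared with day 8 of the time course in the joint fit, the drug effect from day 0 was lower for 2 members and higher for 0 (0.334% and 0.493% of all genes), Klk14 by 1.48 ± 0.39 (adjusted p 0.042) and Spink5 by 0.52 ± 0.14 (adjusted p 0.0424). Both were lost without the low-count filter (0.0874 and 0.0792).

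Drug-treated ears remained far from sham. At days 2, 5 and 8 of the time course, 8, 9 and 8 members were higher than in sham ears and 0 lower (24.2%, 31.1% and 34.2% of all tested genes higher, 20.1%, 29.3% and 32.6% lower, and 44.2%, 60.3% and 66.8% called in all). The ninth call at day 5 was Klk5 (0.39 ± 0.17, edgeR adjusted p 0.0455), which was lost without the low-count filter, in a fit of the compared groups alone and without any 1 of 7 of the 10 libraries (sham 19, 20 or 22, drug 31, 32, 33 or 35). Spink5 was not called there (adjusted p 0.0516) and was called lower by DESeq2 (0.0334), with RLE size factors (0.0423), with a filter at 1 CPM (0.0401) and by limma voom (0.0242). With the drug from days 0, 3 and 5, 10, 10 and 10 were higher (36.7%, 36.6% and 37.4% of all genes, and 74.3%, 74.7% and 75.5% called in all). Klk13, the most induced member, still differed from sham by 7.36 ± 0.14, 7.51 ± 0.14 and 7.59 ± 0.14 in the start-day drug groups. Klk5 differed from sham by 1.45 ± 0.10, 1.56 ± 0.10 and 1.53 ± 0.10 there, beside 1.07 ± 0.10 for imiquimod alone. The sum of the 9 kallikreins over Spink5 was 6.27 ± 0.41, 6.35 ± 0.33 and 6.52 ± 0.65 in these groups, overlapping the imiquimod ears at 6.56 ± 0.14 (SD). In the time course it was 3.28 ± 0.58 at day 2, 5.39 ± 0.77 at day 5 and 6.12 ± 0.64 at day 8, overlapping imiquimod ears on each day.

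Markers of other cells moved with these comparisons. The summed level of 10 neutrophil markers was 3.66 to 4.58 CPM in sham, 92.1 to 144 in imiquimod and 36.9 to 73.2 in ears with the drug from day 0, and at day 5 it was 2.77 to 5.63, 95.9 to 194 and 17.3 to 95.3, with Ly6g and Ngp at 0 in both of these sham groups. The 7 macrophage markers summed to 379 to 435, 927 to 1139 and 732 to 850 CPM in the same start-day groups, and the 7 sebaceous gland markers to 6642 to 7877, 1338 to 1610 and 2355 to 3593. The sebaceous sum was mostly Scd1 (mean over all libraries 3924 CPM, with Far2 next at 241). The neutrophil sum was mostly Csf3r (26.3 CPM) and Cxcr2 (18.6), with Mmp8 next at 1.5. The keratinocyte sum was 68250 to 79610 CPM with the drug from day 0, overlapping 55570 to 69710 with imiquimod. All 7 markers of skeletal muscle fell with imiquimod in the start-day experiment, as did 6 of 7 of cartilage, 6 of 6 of adipocytes and 4 of 6 of fibroblasts, while 2 of 5 red cell genes rose and of 8 hair follicle genes 1 rose and 3 fell. With the drug from day 0, 7 muscle, 5 cartilage and 5 adipocyte markers rose, 2 fibroblast and 5 red cell genes fell, and 2 hair follicle genes rose and 1 fell. Of all tested genes, 38.1% rose and 39.9% fell with imiquimod there, and 18.2% rose and 16.9% fell with the drug from day 0. The part of these cell types in the kallikrein results was not tested.

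Of 17 listed other proteases of the epidermis, some of which activate kallikreins, 13, 14 and 13 were higher and 0, 2 and 2 lower with imiquimod at days 2, 5 and 8, and 16 were higher and 0 lower in the start-day experiment. Among all tested genes, 29.2%, 34.6%, 34.5% and 38.1% were higher and 28.5%, 35.9%, 33.6% and 39.9% lower in these 4 comparisons. The median log2 difference of the proteases was 0.34, 0.64, 0.68 and 1.12, beside -0.03, -0.04, -0.01 and -0.02 over all genes. Casp14, the caspase of cornification, rose by 1.64, 3.08 and 3.38 at days 2, 5 and 8 and by 4.32 in the start-day experiment. The membrane serine protease Prss27 rose by 3.81, 4.96 and 4.76 on the 3 days, Tmprss11d by 5.95 and 5.10 at days 5 and 8, and Tmprss11a by 5.92 in the start-day experiment. The lysosomal protease Ctsd rose by 0.71, 0.68 and 1.12 at day 5, day 8 and in the start-day experiment. With the drug, 4 were higher and 7 lower at day 5 (median -0.10), among them Tmprss11f (1.17) and the plasminogen activators Plat (-0.70) and Plau (-0.39), and 0 and 1 at day 2 (Prss27, -0.94). At day 8, 1 was higher: Prss8, a membrane-anchored channel-activating protease, by 0.68. With the drug from day 0, 3 were higher and 6 lower, and with the starts on day 3 and day 5, 5 and 6 were higher and 4 and 3 lower. Among all tested genes, 6.9%, 18.3% and 1.22% were higher with the drug and 9.61%, 17.2% and 0.335% lower at days 2, 5 and 8, and for the 3 start days 18.2%, 18% and 15% were higher and 16.9%, 16.4% and 12.7% lower.

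Of 15 protease inhibitors tested of 16 listed, 7, 7 and 8 were higher and 4, 6 and 5 lower with imiquimod at days 2, 5 and 8, and 9 were higher and 3 lower in the start-day experiment. The day 5 shares lay near those of all tested genes (34.6% higher and 35.9% lower). At day 2, day 8 and in the start-day experiment, 29.2%, 34.5% and 38.1% of all genes were higher and 28.5%, 33.6% and 39.9% lower. The median log2 difference of the inhibitors was 0.31, 0.07, 0.27 and 0.20 in these 4 comparisons, beside -0.03, -0.04, -0.01 and -0.02 over all genes. Slpi, an inhibitor of elastase-type proteases, rose by 4.04, 5.16, 3.89 and 6.00 in these 4 comparisons. Spink12, a relative of Spink5, rose by 4.72 at day 8 and by 6.50 in the start-day experiment. Wfdc21 fell by 1.49, 2.76 and 3.35 at days 2, 5 and 8, and Serpinb7 by 2.78 at day 5 and 2.46 at day 8. Serpina12, also called vaspin and an inhibitor of KLK7, fell by 3.32 at day 5. With the drug, 6 were higher and 1 lower at day 5 (median 0.23, where 18.3% and 17.2% of all genes were), with Serpinb7 up by 1.60, Serpina12 by 1.62 and Cst6, a cystatin, by 0.71. The counts were 1 and 2 at day 2, 3 and 0 at day 8, and 6 and 3, 8 and 3, and 6 and 2 for the 3 start days, with Serpinb7 up by 1.16 and Cst6 by 0.47 from day 0. Of all genes, 6.9% were higher and 9.61% lower at day 2, and 1.22% and 0.335% at day 8. For the 3 start days these shares were 18.2% and 16.9%, 18% and 16.4%, and 15% and 12.7%.

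Of 9 substrates of the kallikreins in the cornified layer tested, of 10 in the tables, 4, 4 and 4 were higher and 2, 4 and 4 lower with imiquimod at days 2, 5 and 8, and 6 were higher and 3 lower in the start-day experiment. The day 5 and day 8 shares lay near those of all tested genes (34.6% and 34.5% higher, 35.9% and 33.6% lower). At day 2 and in the start-day experiment, 29.2% and 38.1% of all genes were higher and 28.5% and 39.9% lower. The median log2 difference of the substrates was 0.20, -0.02, -0.09 and 0.92 in these 4 comparisons. Dsg1b, a form of the desmosomal cadherin desmoglein 1, rose by 0.85, 1.32, 1.70 and 2.48 in these 4 comparisons, and Dsc1, its partner desmocollin, by 0.98, 1.48 and 2.55 at day 2, at day 8 and in the start-day experiment. Dsg1c fell by 2.21 and 2.52 and Flg2, a filaggrin-like protein, by 4.63 and 5.38 at days 5 and 8. Dsg1 copies are near-identical, so reads could be split among them. With the drug, 5 were higher and 1 lower at day 5 (median 0.45, where 18.3% and 17.2% of all genes were), 1 and 0 at day 2, 2 and 0 at day 8, and 3 and 2, 3 and 1, and 4 and 1 for the 3 start days. Flg2 rose with it by 1.94 at day 5, 1.80 at day 8 and 2.46 from day 0, and Cdsn, the corneodesmosome protein cut by Klk5 and Klk7, by 0.68 at day 8. Of all genes, 6.9% were higher and 9.61% lower with the drug at day 2, and 1.22% and 0.335% at day 8. For the 3 start days these shares were 18.2% and 16.9%, 18% and 16.4%, and 15% and 12.7%.

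F2rl1, the gene of PAR2, fell at days 5 and 8 and in the start-day experiment. It was lower with imiquimod by 0.53 at day 5, 0.66 at day 8 and 0.65 in the start-day experiment (edgeR adjusted p at most 1.43e-08). Of 8 listed genes, F2rl1 and genes known downstream of it in skin, 7, 6 and 4 were higher and 0, 1 and 1 lower at days 2, 5 and 8, and 5 were higher and 1 lower in the start-day experiment. Of all tested genes, 29.2%, 34.6%, 34.5% and 38.1% were higher and 28.5%, 35.9%, 33.6% and 39.9% lower. The median log2 difference over the list was 1.12, 1.46, 0.82 and 0.79. Il1b rose by 9.07, 6.96 and 7.54 at day 5, day 8 and in the start-day experiment, and Icam1, an adhesion molecule, by 0.90, 1.46, 0.86 and 0.67 in the 4 comparisons. Tslp, an epithelial cytokine, rose by 1.07 at day 2. With the drug, 0, 3 and 0 were higher and 1, 1 and 0 lower at days 2, 5 and 8, and 2 were higher and 2 lower for each start day. Of all genes, 6.9%, 18.3% and 1.22% were higher and 9.61%, 17.2% and 0.335% lower at days 2, 5 and 8. For the 3 start days, 18.2%, 18% and 15% were higher and 16.9%, 16.4% and 12.7% lower. F2rl1 rose with the drug by 0.20 at day 5 and by 0.34, 0.25 and 0.25 from days 0, 3 and 5, and Tslp by 1.502, 0.74, 0.78 and 0.50 in the same comparisons.

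Among 17 other kallikreins of the locus, 1 passed the filter on low counts. Klk12, which lies between Klk13 and Klk11, rose with imiquimod by 2.54 at day 2, 4.53 at day 5, 3.39 at day 8 and 5.48 in the start-day experiment (edgeR adjusted p at most 8.63e-05). With the drug it fell by 1.03 at day 5 (adjusted p 0.0355) and by 0.84, 0.59 and 0.51 from days 0, 3 and 5.

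Over the 14 group means of log2 CPM, each experiment centred on its own mean, Pearson's r among the 8 kallikreins other than Klk5 lay between 0.84 (Klk7 with Klk10) and 0.994 (Klk8 with Klk9). It lay between 0.974 and 0.994 among Klk6, Klk8, Klk9, Klk11 and Klk13. Klk7 had r of 0.858 with Klk14. Klk5 had r of 0.388 (Klk10) to 0.822 (Klk7) with the other kallikreins and 0.7 with Spink5, and Spink5 had r of 0.265 with Klk13. All genes were measured in the same libraries, which hold a strong imiquimod contrast, so high values are common. Of 13670 genes, 2005 had r of at least 0.95 with Klk13 and 1784 with Klk6, against 17 with Klk5 and 0 with Spink5. The 3 genes most like Klk5 were Lce1h (0.973), a late cornified envelope gene, Atp6v1c2 (0.97) and Map2 (0.969). For Klk7 they were Tmem54 (0.994), Gsdma (0.991), a gasdermin of skin, and Psors1c2 (0.99). For Spink5 they were Tead3 (0.94), a TEAD transcription factor, Nckipsd and Grk2 (0.927 each). For Klk10 they were Actg1 (0.996), Rac1 and Copb2 (0.994 each), and for Klk14 Dcaf12 (0.994), Fem1b (0.992) and Sprr2b (0.99), which has near-identical copies. For Klk9 they were Cers3 (0.998), a ceramide synthase, Aqp9 and Blmh (0.997 each). For Klk8 they were Hsdl2 (0.998), Endou (0.997) and Gipc1 (0.996), for Klk11 Thop1 (0.996), Ceacam19 and Gm6551 (0.993 each), and for Klk6 Lce3f, Spag5 and Gch1 (0.998 each). Those most like Klk13 included H2ax and Pla2g4e (0.998 each). These nearest genes depended on the measure. By Spearman's rank correlation, 0 of the 3 stayed among the top 3 for Klk6, Klk8, Klk9, Klk10, Klk13 and Klk14. For Klk5, Klk11 and Spink5 1 stayed, and for Klk7 2 did.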

How the data were processed

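Libraries were made from total RNA of ear punches with the Universal Plus mRNA kit, per the labels' protocols. The authors deposited estimated counts per gene for each experiment, from salmon by the names of the tables and against GRCm39 per the submitters' processing notes. Its version, the annotation and the strand setting were not given in the sources used here. The expected counts were rounded to whole numbers, all 82 columns matched a sample title, and no pair of libraries in a group agreed within sampling noise (lowest chi-square per gene 4.13).

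Each experiment had its own edgeR fit (edgeR 4.0.16, R 4.3.3, filterByExpr on group, TMM, robust quasi-likelihood F test, 1 coefficient for each group), with 18780 and 18434 genes tested. Benjamini-Hochberg adjustment ran over all of them, and an adjusted p under 0.05 was called. A joint fit of all 14 groups (19455 genes) compared the experiments. The ratio to Spink5 used a prior count of 2.

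The 10 members and the lists were chosen with earlier results of these data known. All members are named, as are up to 4 called genes of each pathway list by smallest adjusted p, and the 3 genes with the highest r to each member (mean log2 CPM of at least 1). A gene that this rule would name is not reported here. The lists covered epidermal proteases, inhibitors, cornified layer substrates, PAR2 and its targets, other kallikreins, and markers of cell types of the ear.

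The fits were tested on simulated data. Alternatives were DESeq2 1.42.0, RLE factors, no filter, a filter of 1 CPM, limma 3.58.1 with voom, a fit of the compared groups, and leaving out libraries. Sequences came from GRCm38 with GENCODE vM21 and from RefSeq (GRCm38.p6).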

Additional observations from a re-analysis of the deposited data

Results flagged for a closer look

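In 11 of 140 groups of values (10 members in 14 groups), 1 library stood apart from the others by Dixon's criterion, where about 5% would do so by chance. Sham library 38 at day 8 was highest for Klk5 (107 CPM, next 86.3), Klk6 (23.6, next 10.1), Klk7 (294, next 241) and Klk13 (3.15, next 1.79). Imiquimod library 11 at day 2 was highest for Klk9 (127, next 66.8) and Klk13 (161, next 81.5). Sham library 5 at day 2 was highest for Klk6 (15.9, next 8.26), and sham library 19 at day 5 for Klk14 (0.303, next 0.0400). Drug library 13 at day 2 was lowest for Klk11 (68.4, next 89.2) and drug library 18 at day 2 highest for Spink5 (274, next 249.5). In the start-day experiment, imiquimod library 8 was lowest for Klk5 (95.8, next 124).

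The imiquimod effect differed among days 2, 5 and 8 for Klk5 (edgeR adjusted p 0.0036), Klk8 (0.000318), Klk9 (0.0269), Klk10 (0.014), Klk13 (0.00456) and Klk14 (0.001004). It differed between the start-day experiment and day 8 of the time course, on the log2 scale, for Klk5 (by 1.35), Klk6 (1.58), Klk7 (1.51), Klk8 (0.67), Klk9 (1.82), Klk10 (1.03), Klk11 (0.64) and Spink5 (1.47). The drug effect differed between the drug from day 0 and day 8 of the time course for Klk14 (by -1.48, edgeR adjusted p 0.042) and Spink5 (-0.52, adjusted p 0.0424).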

How the results depend on the processing

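No paired analysis was possible because the replicate numbers in the labels are unique within each experiment, so groups share no number. No called difference of a single member changed sign: of 1496 values under other settings, 1440 kept their direction and call, 25 lost the call and 31 gained it, and of 3240 values with 1 library left out these counts were 3160, 47 and 33. Counts of called members that moved by over 1.5 times were these. For the drug at day 2 (3 called), a fit of the compared groups called 0, as did leaving out imiquimod libraries 9 and 11. For the drug at day 8 (1), DESeq2 and limma voom called 2 and no filter 0. For imiquimod at day 8 against day 5 (1), limma voom and a fit of the compared groups called 2. For sham at day 8 against day 2 (1), DESeq2 and limma voom called 3, a fit of the compared groups 5 and no filter 0. For the drug effect among days (0), DESeq2 called 2 and limma voom 1, and for the drug from day 5 against day 0 (0) and among start days (0), DESeq2 called 1. For the joint difference of drug effects (2), no filter called 0 and limma voom 4. Leaving out each library in turn gave 2 to 4 calls for the drug at day 2, 3 to 5 at day 5 and 0 to 3 at day 8. It gave 0 to 1 for the sham days, 0 to 3 for the drug effect among days, 0 to 1 for day 5 against day 0 and 0 to 1 among start days. The cause was not tested, and libraries were not left out of the joint fits. Shares of all tested genes called under these other settings are not given here, so these counts of members have no background beside them. Klk14 in sham ears held at most 16 counts in a group, which limits its fold change, and Klk8 and Klk14 share sequence with an overlapping gene, and Klk14 with others. Without sham library 19, the pooled Klk14 ratio of imiquimod to sham at day 5 was 587 in place of 88.8. With a prior count of 5 in place of 2, the rise of the Klk5 ratio to Spink5 with the drug at day 5 was 0.68 in both cases.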
